A study of Mus musculus with 10 samples.

Results

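The cytochrome P450 genes of the mouse jejunum are described here, as measured by RNA sequencing in 5 Vil-Cre and 5 Vil-Cre:NDI1 male littermates. Members were all rows of the deposited gene table whose symbol is Cyp followed by a family number, a subfamily letter and a gene number, with pseudogene symbols left out. This took 99 of the 45707 rows, in 16 families and 39 subfamilies on 15 chromosomes, and left out 17 other Cyp-named rows, 15 of them pseudogenes. Cyp51, a P450 gene whose symbol has no subfamily letter, was among those left out. The totals, shares and rankings below do not include it. Of the 99 genes, 87 had a read in at least 1 mouse and 12 had none in any. All 10 mice carried Vil-Cre, a Cre recombinase driven by the villin promoter in the intestinal epithelium, and the 5 Vil-Cre:NDI1 mice also carried the yeast NADH dehydrogenase NDI1 behind a stop cassette at ROSA26 that Cre removes. The mice were fasted for 16 to 18 h and gavaged with water, and jejunum was taken 1 h later; the methods give 7 to 12 weeks of age for chow-fed mice. The tissue was whole jejunum, so fewer cells of a type and less RNA per cell cannot be told apart in any value given here.

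Cytochrome P450s are haem enzymes that insert 1 atom of molecular oxygen into a substrate. Most sit in the endoplasmic reticulum and receive electrons from NADPH through P450 oxidoreductase (Por), whereas a few in mitochondria receive them through ferredoxin reductase and ferredoxin (Fdxr and Fdx1). Families 1, 2 and 3 oxidize drugs, dietary compounds and some fatty acids, and several of their genes are switched on by the ligand-activated receptors AHR, PXR (Nr1i2) and CAR (Nr1i3). Family 4 hydroxylates fatty acids and eicosanoids, and other families build or break down sterols, bile acids, steroid hormones, retinoic acid and vitamin D. In the small intestine, enterocytes are the main site of these enzymes and of first-pass drug oxidation.

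The haem iron is held by a cysteine in a short loop near the end of each protein, a well-known signature of the family. In the GENCODE M21 transcripts of GRCm38, 92 of the 99 genes had a match to the known signature of this loop, which starts with phenylalanine or tryptophan and ends 2 residues after the cysteine, in their longest reading frame. The cysteine codon was TGC in 56 of them and TGT in 36. The loops of the genes on which the results turn are shown with the cysteine codon in capitals, as coding strand.

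Cyp4f14: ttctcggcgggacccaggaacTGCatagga
Cyp4v3: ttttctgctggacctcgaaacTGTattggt
Cyp3a13: tttgggagtggaccaaggaacTGCattggc
Cyp3a11: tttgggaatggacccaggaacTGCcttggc
Cyp3a25: tttggaaatggacccaggaacTGCataggc
Cyp2b10: ttctcaacaggaaagcgcattTGTcttggt
Cyp1a1: tttggtttgggcaagcgaaagTGCatcgga
Cyp27a1: ttcggctatggggttcggtctTGCctgggt

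Cyp3a11 and Cyp3a25 differed at 3 of these 30 bases, and Cyp3a13 differed from Cyp3a11 at 3 and from Cyp3a25 at 4. Between Cyp4f14 and Cyp27a1 17 of the 30 bases differed, between Cyp3a25 and Cyp2b10 16, and between Cyp3a11 and Cyp27a1 13. Likeness over longer stretches bears on the counts: 15 of the 99 genes had over 10% of their 100-base runs in another gene, so single-end reads of 100 cycles could not place those stretches uniquely. Among the genes described below this concerned Cyp2c68 (19.8%, mostly with Cyp2c40). The shared fraction was 9.86% for Cyp2d9, 9.8% for Cyp4f16, 9.34% for Cyp2c66, 7.82% for Cyp2c65, 6.05% for Cyp3a25, 5.77% for Cyp4v3 (with Klkb1, which it overlaps on the same strand) and 0.31% for Cyp3a11.

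Each library held between 10145705 and 12371530 reads on genes, and the authors' size factors lay between 0.852 and 1.098. Values are normalized counts, that is, reads divided by the size factor of the library. The 99 P450 genes took 0.62% ± 0.171 of each library's counts in Vil-Cre mice (SD, n = 5) and 0.644% ± 0.0964 in Vil-Cre:NDI1 mice (n = 5). To compare genes with each other, each value was divided by the length of the gene's joined exons in kb. On this scale the summed P450 level was 23510 ± 6400 per kb in Vil-Cre mice (n = 5) and 25599 ± 4537 in Vil-Cre:NDI1 mice (n = 5), with ranges of 15339 to 32819 and 21273 to 33159 that overlapped.

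A few genes made up most of the message of the 99 P450 genes. Of the summed level per kb, family 4 held 50.8% ± 6.55 (SD over 10 mice), family 3 26.7% ± 4.74, family 2 18.9% ± 2.01, and the genes of sterol and bile acid metabolism 3.27% ± 0.831. The genes of family 1, of retinoid and vitamin D metabolism and of steroid hormone synthesis each held under 1%, at 0.0816%, 0.0685% and 0.0149%. The 14 genes with at least 1% each added up to 94.7%. Cyp4f14 alone held 29.2% ± 4.9, Cyp3a13 14.4% ± 0.907, Cyp4v3 11.7% ± 1.78 and Cyp3a11 7.47% ± 3.31. Shares of Cyp3a13 and Cyp3a11 moved by more than their SD, to 12.6% and 11.8%, when the length of the longest transcript was used in place of the joined exons, so the order of Cyp3a13, Cyp4v3 and Cyp3a11 rests on the choice of length.

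**Figure D1:**
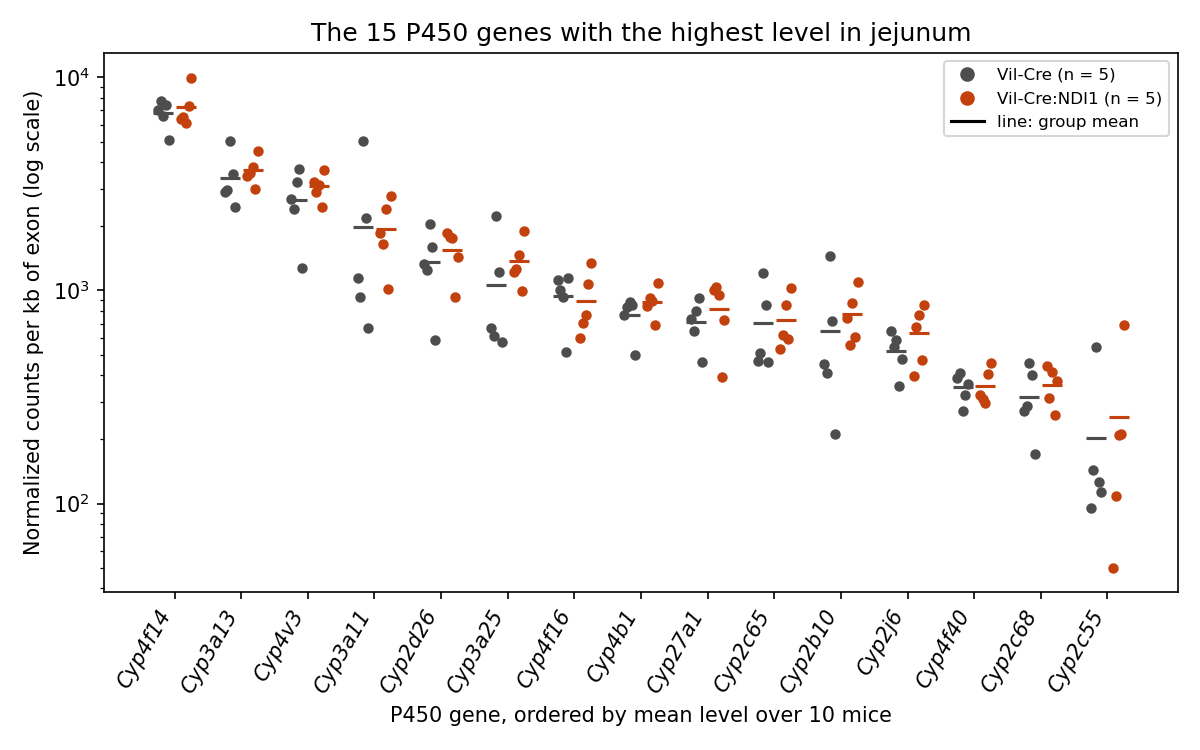
Normalized counts per kb of exon (y axis, log scale) of the 15 P450 genes with the highest mean level (x axis), 1 point a mouse, grey for the 5 Vil-Cre and orange for the 5 Vil-Cre:NDI1 mice, with a line at each group mean. The mean level fell from 7014 per kb for Cyp4f14 to 229 for Cyp2c55, and the points of both genotypes overlapped for each of the 15 genes.

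Among family 4, Cyp4f14, a hydroxylase of leukotriene B4 and other eicosanoids, had the highest level of all 99 genes, 7014 ± 1293 per kb (SD, n = 10), which was rank 81 among all genes of the table. Its normalized counts were 16940, 18783, 15953, 17937 and 12294 in Vil-Cre 1 to 5 and 15362, 15692, 14854, 17689 and 24157 in Vil-Cre:NDI1 1 to 5. Vil-Cre 5 was lowest and Vil-Cre:NDI1 5 highest, and the other 8 mice lay close together in both genotypes. The log2 fold change of Vil-Cre:NDI1 against Vil-Cre was 0.09 (95% interval -0.26 to 0.44).

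Cyp4v3, the counterpart of the human fatty acid hydroxylase CYP4V2 whose loss causes Bietti crystalline dystrophy, had 10284, 9166, 12351, 14227 and 4836 normalized counts in Vil-Cre mice and 12322, 11083, 11931, 9357 and 13937 in Vil-Cre:NDI1 mice. Vil-Cre 5 stood below all others, and the remaining 9 mice overlapped. The log2 fold change was 0.28 (-0.26 to 0.82) and became 0.04 without Vil-Cre 5. Cyp4b1, a fatty acid hydroxylase that also activates furan toxins, showed the same low mouse, with 1732, 1891, 1992, 1935 and 1129.5 in Vil-Cre mice against 1916, 2073, 2008, 1546 and 2453.

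Other Cyp4f genes differed among themselves. Cyp4f16 had 3456, 3084, 2863, 1576 and 3519 normalized counts in Vil-Cre mice and 1828, 2164, 2357, 3300.3 and 4115 in Vil-Cre:NDI1 mice, so that Vil-Cre 5 was among the high mice and Vil-Cre 4 was the lowest. Cyp4f40 ranged from 679 to 1023 in Vil-Cre and 739 to 1137 in Vil-Cre:NDI1 mice. Cyp4f13 was the steadiest of the 34 genes tested, with a within-genotype SD of 0.15 on the log2 scale. Its values were 844, 908, 839, 844 and 737 against 935, 989, 922, 817 and 1143, a log2 fold change of 0.20 (-0.01 to 0.41), and 4 of the 5 Vil-Cre:NDI1 mice lay above every Vil-Cre mouse (two-sided exact permutation p = 0.0794).

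Cyp4f18, which inactivates leukotriene B4 in myeloid cells, was a low-count gene at 15.9, 41.6, 25, 17.2 and 33 normalized counts in Vil-Cre mice and 35.3, 25.5, 4.84, 12.7 and 4.70 in the Vil-Cre:NDI1 group. Its log2 fold change was -0.94 (-2.14 to 0.25), and the groups overlapped. The gene overlaps Zfp961 on the opposite strand, and whether counting used strand is not given in the sources used here. The Cyp4a genes, fatty acid hydroxylases under control of PPAR alpha, held 0.134% of the summed level with 8 members. Cyp4a14, chosen after its values were seen, had 106 normalized counts in Vil-Cre 1, 37.1 and 37.9 in Vil-Cre 3 and 5, and at most 7.83 in the other 7 mice.

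All 9 family 3 genes lie on chromosome 5, and the 3 abundant members ran in parallel. Cyp3a13, the Cyp3a enzyme known as typical of mouse intestine, had 8529, 8743, 14794, 10402 and 7302 normalized counts in Vil-Cre mice and 10225, 10539, 11264, 8887 and 13329 in Vil-Cre:NDI1 mice. Cyp3a11, a main target of PXR and the closest functional match of human CYP3A4, had 5810.4, 4735, 25513, 11132 and 3385 in Vil-Cre mice and 9436, 8395, 12274, 5193 and 14152 in Vil-Cre:NDI1 mice. Cyp3a25 had 1387, 1271, 4664, 2548 and 1198 in Vil-Cre mice and 2537, 2640.3, 3059, 2079 and 3951 in Vil-Cre:NDI1 mice. In each of the 3 genes Vil-Cre 3 was the highest and Vil-Cre 5 the lowest of the 10 mice, and Vil-Cre:NDI1 5 came next to the top. The spread was largest for Cyp3a11, at 7.54-fold from the lowest to the highest mouse, against 3.89-fold for Cyp3a25 and 2.03-fold for Cyp3a13.

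The log2 fold changes of these genes were 0.16 (95% interval -0.24 to 0.55) for Cyp3a13, 0.29 (-0.78 to 1.35) for Cyp3a11 and 0.55 (-0.21 to 1.31) for Cyp3a25. They rested on the 2 extreme Vil-Cre mice: without Vil-Cre 3 they were 0.31, 0.72 and 0.87, and without Vil-Cre 5 they were 0.06, -0.01 and 0.38. Cyp3a44, a gene known from female liver, had another pattern. It had 38.3, 71.1, 47.1, 41.5 and 64.1 normalized counts in Vil-Cre mice and 34.3, 58.3, 23.2, 19.6 and 28.2 in Vil-Cre:NDI1 mice, a log2 fold change of -0.73 (-1.39 to -0.06). All Vil-Cre:NDI1 mice but replicate 2 lay below every Vil-Cre mouse. Cyp3a44 was the only tested member with an unadjusted limma p under 0.05 (0.0348, adjusted p = 0.998).

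Family 2 is the largest, with 49 members, of which 40 had a read and 15 passed the filter for testing. Cyp2d26 held 5.88% ± 1.35 of the summed level, with 2383, 2234, 3657, 2863 and 1047 normalized counts in Vil-Cre mice and 3346, 3191, 3143, 1665 and 2567 in Vil-Cre:NDI1 mice. Cyp2b10, the classical target of CAR, had 956, 870.0, 3058, 1524 and 447 against 1564, 1178, 1845, 1284 and 2311. For Cyp2b10 Vil-Cre 3 was highest and Vil-Cre 5 lowest, as in the Cyp3a genes, over a 6.84-fold range. Its log2 fold change was 0.51 (-0.40 to 1.42), 0.87 without Vil-Cre 3 and 0.18 without Vil-Cre 5.

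The Cyp2c genes, epoxygenases and hydroxylases of arachidonic acid, lie together on chromosome 19, and 5 of the 7 tested were highest in Vil-Cre 3. Cyp2c65 had 898, 984, 2329, 1655 and 888 normalized counts in Vil-Cre mice and 1019, 1187, 1653, 1136 and 1984 in Vil-Cre:NDI1 mice. Cyp2c66 had 89.7, 103, 624, 207 and 91.3 against 81.4, 195, 313, 109.7 and 337. Cyp2c29 had 15, 28.5, 312, 9.10 and 24.3 against 10.8, 38.3, 103, 13.7 and 51.6. For Cyp2c29 and Cyp2c66 the single mouse Vil-Cre 3 carried more than the other 4 Vil-Cre mice together, and its removal moved the log2 fold change from -0.0028 to 0.81 and from 0.15 to 0.63.

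Cyp2c55, an intestinal enzyme that makes 19-hydroxy-eicosatetraenoic acid, had 189.7, 287, 1082, 252 and 227 normalized counts in Vil-Cre mice and 99.98, 216, 418, 421 and 1375 in Vil-Cre:NDI1 mice. A single mouse of each genotype was far above its group, Vil-Cre 3 and Vil-Cre:NDI1 5, and the range over all mice was 13.7-fold. Cyp2c68 was steadier, with 468, 496, 787, 694 and 294 against 765, 541, 717, 449 and 647. Cyp2j6, an epoxygenase of intestine, ranged from 1288 to 2339 in Vil-Cre and 1433 to 3081 in Vil-Cre:NDI1 mice, with its lowest value in Vil-Cre 4 and no high value in Vil-Cre 3.

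Cyp2e1, the ethanol-oxidizing P450, which is also abundant in liver and fat, had the largest spread of all tested members, a within-genotype SD of 2.03 on the log2 scale. Its normalized counts were 429.8, 448, 269, 13.1 and 96.2 in Vil-Cre mice and 5.88, 85.6, 186, 145 and 146 in Vil-Cre:NDI1 mice. The lowest mouse was 76.1-fold below the highest. The fat cell gene Adipoq had 113, 164, 72.1, 1.01 and 7.77 in Vil-Cre mice and 0, 48.3, 66.8, 63.7 and 56.3 in Vil-Cre:NDI1 mice, and Cfd, another fat cell gene, 603, 975, 296, 5.06 and 76.7 against 0.98, 186, 334, 215 and 167. The 3 lowest mice were the same for Adipoq and Cfd, namely Vil-Cre:NDI1 1, Vil-Cre 4 and Vil-Cre 5, and the first 2 of these were also the lowest for Cyp2e1. Summed over all 8 adipocyte markers, which include Lipe and Cidec with at least 1001 and 922 in every mouse, values ran from 2176 to 4375 in Vil-Cre and 2782 to 3713 in Vil-Cre:NDI1 mice. The part of fat cells or of liver transcripts in the Cyp2e1 values was not tested. The log2 fold change of Cyp2e1, -0.98 (-3.35 to 1.39), became -0.12 without Vil-Cre:NDI1 1 and -1.83 without Vil-Cre 4.

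**Figure D2:**
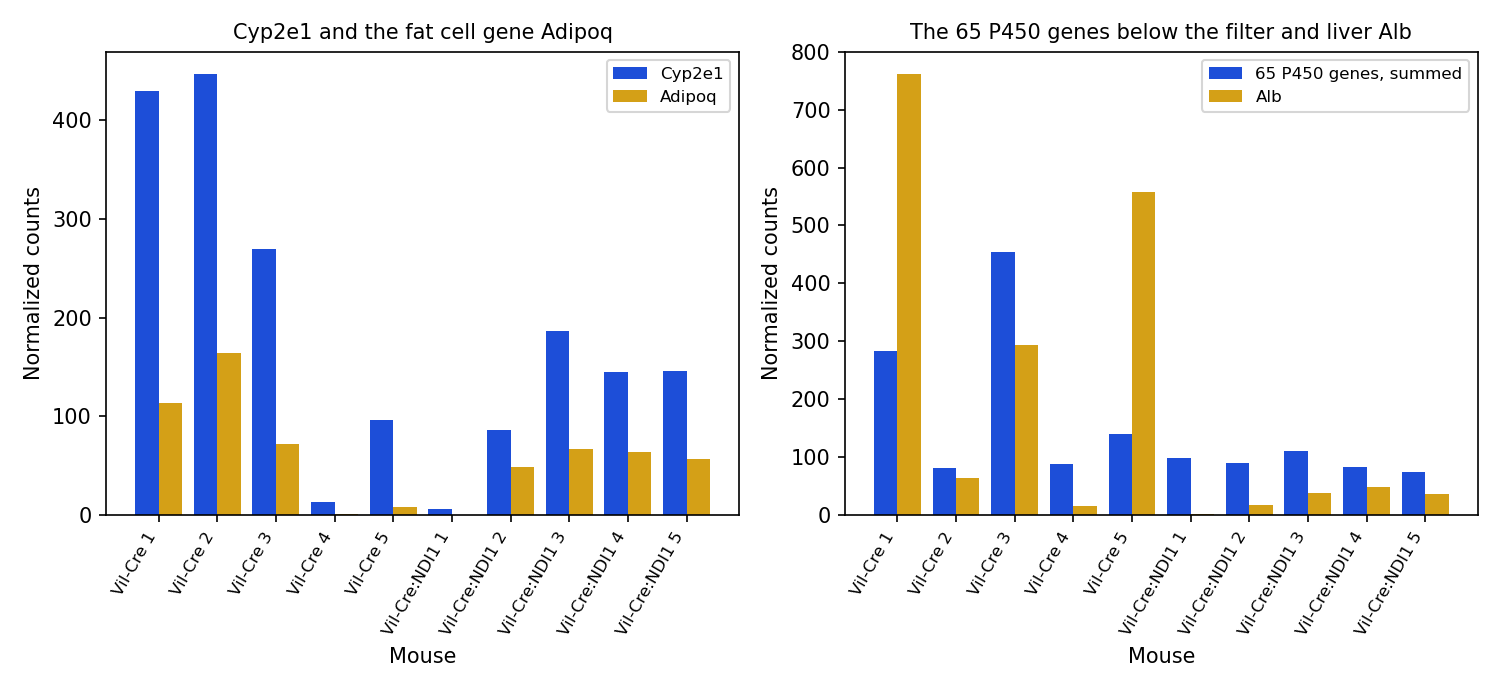
Normalized counts (y axes, from 0) in each of the 10 mice (x axes) of Cyp2e1 beside Adipoq (left), and of the 65 P450 genes below the filter, summed, beside the liver gene Alb (right). Cyp2e1 and Adipoq were both near 0 in Vil-Cre 4 and Vil-Cre:NDI1 1, and the summed low P450 genes were highest in Vil-Cre 3 (454) and Vil-Cre 1 (283). Cyp1a1 alone made up 252 of the 454 in Vil-Cre 3. In Vil-Cre 5 the sum was 139, with Alb at 557.

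Among the members, sterol and bile acid genes were led by Cyp27a1, the mitochondrial sterol 27-hydroxylase, which held 3.16% ± 0.834 of the summed P450 level. Its normalized counts were 1603, 1397, 1743, 2001 and 1006 in Vil-Cre mice and 2179, 2245, 2078, 850.0 and 1576 in Vil-Cre:NDI1 mice, a log2 fold change of 0.16 (-0.43 to 0.74). Vil-Cre 5 and Vil-Cre:NDI1 4 were the low mice. Cyp7b1, the oxysterol 7-alpha-hydroxylase, had 10.3, 23, 16, 13.1 and 9.71 against 5.88, 12.8, 5.81, 4.90 and 12.9, with a log2 fold change of -0.74 (-1.58 to 0.09) and overlapping groups. Cyp7a1, the rate-limiting enzyme of bile acid synthesis in liver, had 1 read in 1 mouse (chosen after its values were seen), below the 3 reads that a count of 0 allows.

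In family 1, Cyp1a1, the best known target of AHR, had 0.934, 0, 252, 20.2 and 5.83 normalized counts in Vil-Cre mice and 3.92, 9.11, 2.90, 1.96 and 2.35 in Vil-Cre:NDI1 mice. Vil-Cre 3 stood far above all others, and Vil-Cre 4 was next. The gene did not pass the filter and is named after its values were seen. Among non-P450 targets of AHR, Ahrr had 11.2, 8.75, 24, 30.3 and 8.74 in Vil-Cre mice and 8.81 to 12.8 in Vil-Cre:NDI1 mice. Its highest mice were thus also Vil-Cre 4 and Vil-Cre 3, in the opposite order. The highest mouse was Vil-Cre 2 for Tiparp (506), Vil-Cre:NDI1 1 for Nqo1 (257) and Vil-Cre:NDI1 3 for Ugt1a6a (170). The part of AHR in the Cyp1a1 values was not tested. Across the 10 mice Cyp1a1 and the mean log2 level of 5 such targets gave Pearson r = 0.53 (permutation p = 0.104) and Spearman rho = 0.52 (permutation p = 0.132), with adjusted p of 0.231 and 0.315 over 31 relations, and r = 0.63 without the 2 mice farthest from the median.

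Cyp1b1, which oxidizes steroids and is found in stromal cells, behaved otherwise, with 46.7, 75.5, 81.1, 51.6 and 95.2 normalized counts in Vil-Cre mice and 48, 48.3, 59.1, 49 and 42.3 in the Vil-Cre:NDI1 group. Its log2 fold change was -0.45 (-0.93 to 0.02), and Vil-Cre 1 and Vil-Cre 4 lay within the Vil-Cre:NDI1 range. Cyp20a1, a P450 of unknown substrate, had 42.1, 68.9, 58.1, 50.6 and 80.6 against 50, 53.8, 51.3, 44.1 and 32.9, a log2 fold change of -0.35 (-0.83 to 0.13). Among vitamin genes, only Cyp26b1, which breaks down retinoic acid, passed the filter (50.9 to 100.2 over all mice), and none of the 6 steroid hormone genes did.

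The low end of the family is described by counts, since 65 genes did not reach a normalized count of 10 in at least 5 mice. Of these, 53 had a read, 26 of them fewer than 10 reads in all 10 libraries together. Summed over the 65 genes, values were 283, 79.9, 454, 88 and 139 in Vil-Cre mice and 97, 89.3, 110.4, 82.3 and 74 in Vil-Cre:NDI1 mice. Cyp1a1 accounted for 252 of the 454 in Vil-Cre 3. Of the 53 genes, 14 were highest in Vil-Cre 1 and 13 in Vil-Cre 3. Cyp2a12 and Cyp2d9, known for liver and both chosen after their values were seen, were read mostly in Vil-Cre mice. Cyp2a12 had 11.2, 0, 1.00, 1.01 and 2.91 normalized counts against 0 in all 5 Vil-Cre:NDI1 mice. Cyp2d9 had 26.2, 5.47, 17, 3.03 and 8.74 against 0.98, 0.911, 3.87, 0.979 and 0, so that Vil-Cre:NDI1 3 lay above Vil-Cre 4.

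Liver markers were read in the same libraries. Alb had 763, 63.5, 294, 15.2 and 557 normalized counts in Vil-Cre mice and 0.98, 17.3, 36.8, 47 and 36.4 in Vil-Cre:NDI1 mice. All 20 hepatocyte markers had a read, 10 passed the filter, all 10 with a negative and uncalled log2 fold change (median -1.27), and the summed level ran from 184 to 2463 in Vil-Cre and 132 to 367 in Vil-Cre:NDI1 mice. The part of liver transcripts in the values of the low P450 genes was not tested. In the 15 most abundant P450 genes no relation with the hepatocyte score passed adjustment (Pearson r from -0.56 to 0.66, n = 10 mice).

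The genotype comparison over all these genes called none. In the limma fit on log2(value + 1), 1 of 14301 genes passed an adjusted p of 0.05, which is 0.00699% and was NDI1 itself, and 0 of the 34 tested P450 genes did. At an unadjusted p under 0.05 there was 1 member of 34 (2.94%) against 4.24% of all genes tested. No tested member had groups that did not overlap, where 0.699% of all genes tested did. DESeq2 on the recovered reads of the 10 libraries called 0 of 48 members with an adjusted p, against 0.183% of genes, and edgeR called 0 of 34. The smallest p that the exact permutation test can give with 5 against 5 mice is 0.00794. Log2 fold changes were positive in 21 of the 34 members and in 7318 of 14300 mouse genes, with medians of 0.12 and 0.01. By role, they were positive in 12 of 15 in family 2, 3 of 4 in family 3, 5 of 9 in family 4 and 1 of 3 among sterol genes.

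**Figure D3:**
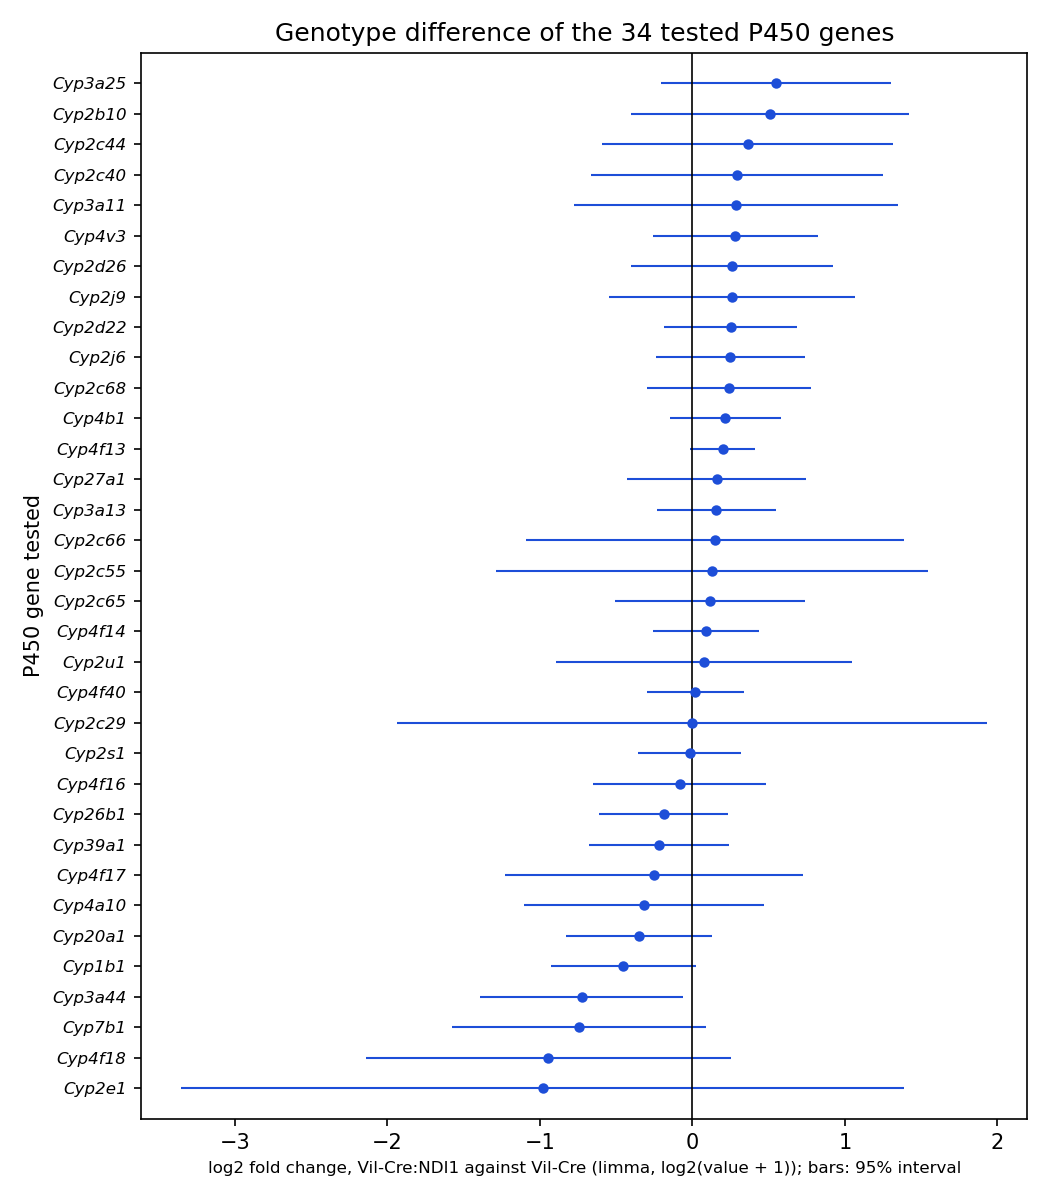
Log2 fold change of Vil-Cre:NDI1 against Vil-Cre (x axis) of the 34 tested P450 genes (y axis, ordered by size) from limma on log2(value + 1), with bars for the 95% interval. Only the interval of Cyp3a44, from -1.39 to -0.06, left out 0, and the widest, that of Cyp2e1, ran from -3.35 to 1.39.

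The data could not show small differences in many of these genes. The interval of the log2 fold change stayed inside a 2-fold change either way in 18 of 34 members (52.9%) and in 79.6% of the 14300 mouse genes tested. The median within-genotype SD on the log2 scale was 0.51 for the members and 0.29 for all mouse genes tested, and by role it was 0.70 in family 2, 0.57 in family 3 and 0.45 in family 4.

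A count test gave P450 calls in 1 setting, which depended on the control mice kept. DESeq2 on the 8 libraries other than Vil-Cre 3 and Vil-Cre 4, a setting chosen after seeing the data, called 4 of 39 members, against 1.77% of all genes. The size factors of this pair lie nearest to 1, but their values were whole multiples of 1 read as in the other libraries, which gives no ground to leave them out. Cyp3a25 (log2 fold change 1.15, SE 0.18, DESeq2 adjusted p = 1.03e-06), Cyp2b10 (1.11, SE 0.26, adjusted p = 0.00475) and Cyp3a11 (1.09, SE 0.28, adjusted p = 0.0135) were higher in Vil-Cre:NDI1 mice, and Cyp2d9 was lower (-3.30, SE 0.94, adjusted p = 0.0339). The 2 libraries left out there are the highest Vil-Cre mice for Cyp3a11, Cyp3a25 and Cyp2b10. Without Vil-Cre 3 alone, DESeq2 called 0 of 59 members, against 0.298% of genes, with an adjusted p of 0.0943 for Cyp3a25. On the same 8 libraries edgeR called 0 of 35.

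Many members were high or low in the same mice, in both genotypes. Vil-Cre 3 had the highest value in 13 of the 34 tested members (38.2%) and in 11% of all mouse genes tested, and Vil-Cre:NDI1 5 in 9 (26.5%, against 15.6%). Vil-Cre 5 had the lowest value in 13 members (38.2%, against 15.4%). The median deviation of the members from the 10-mouse median was 0.42 on the log2 scale in Vil-Cre 3, 0.31 in Vil-Cre:NDI1 5, -0.40 in Vil-Cre 5 and -0.31 in Vil-Cre:NDI1 4. That of all mouse genes tested was at most 0.00243 in size in each library. Scaling by size factors holds this all-gene value near 0, so it is no background for the members. In Vil-Cre 3, 6 of 34 members were over 2-fold above the median (2.21% of all genes) and none were as far below it. In Vil-Cre 5, 7 members were over 2-fold below it (2.67% of all genes) and none as far above. The pattern was not particular to P450 genes. Among the enterocyte markers, Lct, Fabp1, Apoa4, Treh and Ace were also highest in Vil-Cre 3 and lowest in Vil-Cre 5. The other enterocyte markers were highest in Vil-Cre:NDI1 4 or Vil-Cre:NDI1 5.

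**Figure D4:**
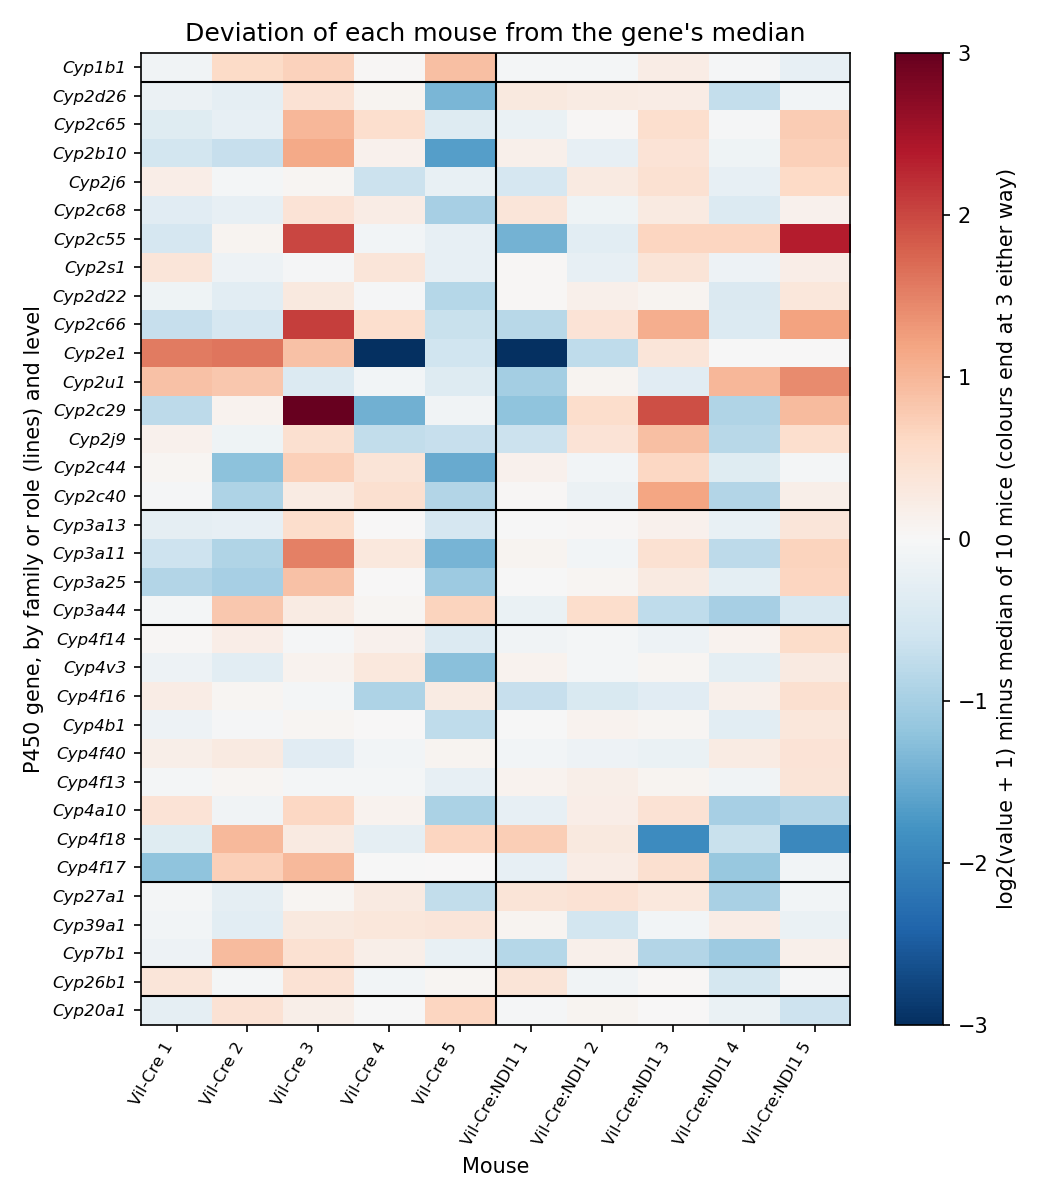
Deviation of each mouse (x axis) from the median of the 10 mice, on the log2(value + 1) scale (colour, red above and blue below, ending at 3 either way), for the 34 tested P450 genes (y axis), set apart by family or role. The column of Vil-Cre 3 is red for Cyp2c29, Cyp2c66, Cyp2c55, Cyp3a11 and Cyp2b10, that of Vil-Cre 5 is blue for Cyp2b10, Cyp2d26, Cyp3a11 and Cyp4v3, and Cyp4f14, Cyp4f40 and Cyp4f13 are pale throughout.

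The promoters of the members were searched in RefSeq (GRCm38.p6) for sites of the receptors named above. The letters searched on both strands were GCGTG (the core that AHR binds with ARNT), AGGTCA and AGTTCA (half-sites of nuclear receptors such as PXR and CAR) and TATAAA, over 250 bases before to 50 after the start, and these motifs do not overlap each other in the windows shown. Shown are 4 genes that were high in Vil-Cre 3, chosen because their windows hold matches to the AHR or nuclear receptor letters. The 250 bases before the start are given 5′ to 3′ on the gene's strand with matches in capitals, at chr5:145879855-145880104 (minus strand) for Cyp3a11, chr5:146009619-146009868 (minus) for Cyp3a25, chr7:25897408-25897657 (plus) for Cyp2b10 and chr9:57697363-57697612 (plus) for Cyp1a1.

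Cyp3a11: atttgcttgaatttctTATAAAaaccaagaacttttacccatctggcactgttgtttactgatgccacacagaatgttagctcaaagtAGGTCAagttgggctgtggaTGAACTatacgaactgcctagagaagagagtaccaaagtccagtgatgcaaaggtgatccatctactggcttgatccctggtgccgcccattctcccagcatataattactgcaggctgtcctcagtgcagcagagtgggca
Cyp3a25: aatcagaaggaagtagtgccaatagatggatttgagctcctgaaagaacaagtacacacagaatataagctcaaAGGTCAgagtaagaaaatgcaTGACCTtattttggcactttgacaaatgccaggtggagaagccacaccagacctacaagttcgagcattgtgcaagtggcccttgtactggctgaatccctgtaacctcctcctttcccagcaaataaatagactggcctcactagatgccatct
Cyp2b10: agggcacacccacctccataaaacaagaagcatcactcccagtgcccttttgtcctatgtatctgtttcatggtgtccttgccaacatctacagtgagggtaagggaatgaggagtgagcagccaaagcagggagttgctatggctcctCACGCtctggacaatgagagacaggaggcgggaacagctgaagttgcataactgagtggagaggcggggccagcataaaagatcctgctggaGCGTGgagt
Cyp1a1: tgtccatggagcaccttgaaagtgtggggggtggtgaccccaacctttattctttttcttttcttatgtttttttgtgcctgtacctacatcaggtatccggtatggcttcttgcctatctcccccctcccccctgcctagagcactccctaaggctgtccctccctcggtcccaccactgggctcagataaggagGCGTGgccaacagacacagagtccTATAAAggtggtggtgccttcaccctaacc

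Counted from the start site, Cyp1a1 had GCGTG at -54 and TATAAA at -30, and Cyp2b10 had GCGTG at -101 on the minus strand and at -9. Cyp3a11 had AGGTCA at -162 and AGTTCA at -142 on the minus strand, and Cyp3a25 had AGGTCA at -176 and again at -155 on the minus strand. Other genes that were highest in Vil-Cre 3 lacked them: Cyp3a13 had none of the searched letters, and Cyp2c65, Cyp2c66 and Cyp2d26 had TATAAA alone. Cyp2c29 had AGGTCA and TATAAA, and Cyp2c68 had GCGTG. Over the 86 promoters of the 76 P450 genes in the table, AGGTCA was in 25.6% (16.3% of all 32851 promoters), AGTTCA in 17.4% (14%), TATAAA in 39.5% (13.6%) and GCGTG in 19.8% (32.4%). A match of letters is a description and not a bound site.

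Abundant P450 genes were set against the enterocyte marker level of each mouse. The score was the mean log2(value + 1) of 14 enterocyte genes, among them the brush border enzymes Lct, Sis and Anpep, and it ran from 14.05 in Vil-Cre 5 to 15.1 in Vil-Cre:NDI1 5. Of the 15 most abundant P450 genes, 13 had a positive r with it, and 8 passed adjustment over 31 relations by Pearson and 3 by Spearman (Cyp3a13, Cyp3a25 and Cyp4b1). How many genes other than P450s follow this score was not counted, so these numbers cannot be read as particular to P450 genes. Cyp4b1 had r = 0.95 (permutation p = 0.0004, adjusted 0.00806) and rho = 0.90 (permutation p = 0.00076, adjusted 0.0163), and r = 0.70 without the 2 mice at the ends, Vil-Cre 5 and Vil-Cre:NDI1 5. Cyp4v3 had r = 0.95 (adjusted permutation p = 0.00806) and rho = 0.71 (adjusted permutation p = 0.0934), with r = 0.72 without these mice, and Cyp3a25 r = 0.78 (adjusted permutation p = 0.00806) and rho = 0.88 (adjusted permutation p = 0.0177), with r = 0.85 without them.

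The 3 Cyp4f genes among these 15 did not pass, and neither did Cyp27a1, Cyp2c65, Cyp2j6 and Cyp2c55. The r of these others was 0.61, 0.63, 0.32 and 0.37 (adjusted permutation p = 0.171, 0.0997, 0.551 and 0.458). Cyp4f14 had r = 0.66 (adjusted permutation p = 0.171) and rho = 0.18, and r turned to -0.68 without Vil-Cre 5 and Vil-Cre:NDI1 5, so its relation rests on these mice. Cyp4f16 and Cyp4f40 had r of -0.30 and -0.13. The points of all relations share the scaling of their libraries. With libraries rescaled to the same total, 6 of the 31 relations passed by Pearson and only that of Cyp4b1 by Spearman (adjusted permutation p = 0.0496). Cyp3a13 and Cyp3a11 then missed by Pearson (adjusted permutation p = 0.0769 and 0.0533), and Cyp3a13 and Cyp3a25 by Spearman (adjusted permutation p = 0.0816 for each).

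**Figure D5:**
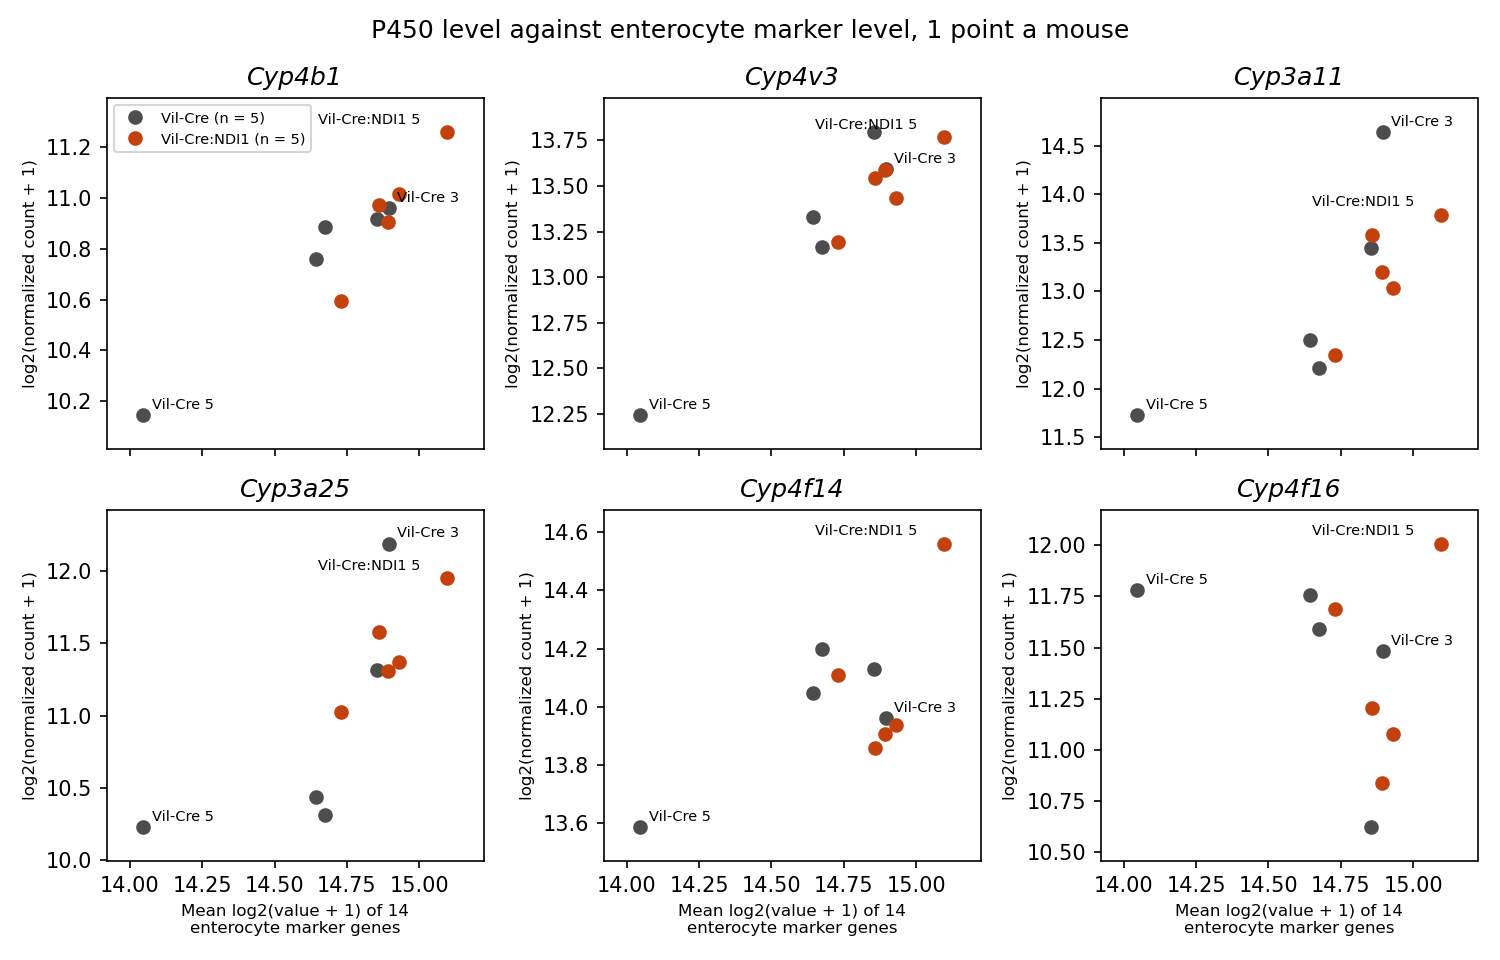
Log2(normalized count + 1) of 6 P450 genes (y axes) against the mean log2(value + 1) of 14 enterocyte marker genes (x axes), 1 point a mouse, grey for Vil-Cre and orange for Vil-Cre:NDI1. Cyp4b1, Cyp4v3, Cyp3a11 and Cyp3a25 rise with the marker level (Pearson r = 0.95, 0.95, 0.75 and 0.78), with Vil-Cre 5 at the low end, whereas Cyp4f16 does not (r = -0.30).

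Genes that serve or control the P450s showed no genotype call either. All 7 electron donors had a positive log2 fold change (median 0.16) and 0 were called. Por had 2971, 2747, 3800.0, 2311 and 2886 normalized counts in Vil-Cre mice and 3200.4, 3750.0, 3584, 3447 and 4297 in Vil-Cre:NDI1 mice. The 4 lowest values were those of Vil-Cre mice, and Vil-Cre 3 was second highest of the 10. The log2 fold change of Por was 0.32 (0.05 to 0.60, limma adjusted p = 0.998). Of 12 genes of haem synthesis and breakdown 9 were positive (median 0.07), and of 15 tested receptors and factors 10 were (median 0.04), with 0 calls in each.

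CAR (Nr1i3) had 731, 524, 1042, 931 and 263 normalized counts in Vil-Cre mice and 940.0, 1097, 955, 617 and 909.7 in Vil-Cre:NDI1 mice. Its highest mouse was Vil-Cre:NDI1 2, with Vil-Cre 3 next, and its lowest was Vil-Cre 5. That mouse was also lowest in 13 of the 34 tested P450 genes. PXR (Nr1i2) varied less, from 1719 in Vil-Cre 2 to 2835 in Vil-Cre 4. The part of either receptor in the P450 values was not tested. Non-P450 targets of AHR (4 tested, median -0.13), PPAR alpha (8, -0.07) and the vitamin D receptor (3, -0.11) and retinoid genes (8, 0.18) had 0 calls.

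Other cell types were measured by marker lists in the same mice. All 14 enterocyte markers were detected at high level and had positive, uncalled log2 fold changes (median 0.26; summed level 358629 to 595028 in Vil-Cre and 558876 to 721965 in Vil-Cre:NDI1 mice). Medians were -0.21 for goblet, -0.20 for Paneth, -0.38 for B and plasma cell, -0.12 for T cell, -0.48 for macrophage, 0.07 for adipocyte, -0.07 for smooth muscle, 0.14 for endothelial and -0.17 for fibroblast markers, with 0 calls in every list. Pancreas acinar markers summed to at most 6.54 normalized counts in any mouse. The part of cell composition in the P450 values was not tested.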

How the data were processed

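Jejunum RNA of 5 Vil-Cre and 5 Vil-Cre:NDI1 mice was sequenced, 1 library a mouse. Single-end reads were trimmed (trimGalore!), mapped to GRCm38 plus NDI1 (STAR) and quantified per gene (Salmon) by the authors, and then scaled with the size factors of DESeq2, so the deposited values are a signal (normalized counts) and not raw counts. The annotation release and strand setting are not given in the sources used here. Groups were taken from the labels. Values above 0 were whole multiples of what 1 read is worth in 100% of cases per library (tolerance 0.1), and reads were recovered from these. All 99 P450 genes were found in GENCODE M21, which gave lengths and overlaps.

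Genotypes were compared by limma (3.58.1, R 4.3.3) with a mean-variance trend and a pseudocount of 1 before log2, for the 14301 genes that reached 10 in 5 or more mice, with Benjamini-Hochberg adjusted p under 0.05 as the threshold. Fold changes on this scale understate those of low genes. Named genes were the 15 highest per kb, the 6 with the smallest p, the 5 with the largest within-genotype SD, and any called or with groups that do not overlap, 24 in all. Correlations used 100000 permutations. DESeq2 1.42.0 and edgeR 4.0.16 on recovered reads, other scalings, filters and pseudocounts, a replicate block, and leaving out each mouse were alternatives. Scripts were tested on simulated data. Every pair of same-genotype libraries differed beyond counting noise (lowest chi-square per gene 13.2). Nothing shows whether mice shared a cage or day. The members, lists and rules were chosen with earlier results of these data known. The intervals of the log2 fold changes come from the limma fit and rest on the spread between mice of the same genotype. Floors on reads cover counting error only.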

Additional observations from a re-analysis of the deposited data

Results flagged for a closer look

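In 50 groups of 5 mice (25 P450 genes in 2 genotypes), 6 held a mouse whose gap to the nearest other, as a share of the group's range, was above 0.71. Chance flags about 1 in 20 groups, but the count cannot be read against this, since 5 of the genes were named for their large within-genotype SD and Cyp1a1, with 2 of the 6, after its values were seen. Vil-Cre 3 was the high mouse in 4 of them. Its normalized count was 1082 for Cyp2c55 (gap share 0.891, others 189.7 to 287), 624 for Cyp2c66 (0.78, others 89.7 to 207), 312 for Cyp2c29 (0.936, others 9.10 to 28.5) and 252 for Cyp1a1 (0.92, others 0 to 20.2). In Vil-Cre:NDI1 mice, replicate 5 stood high for Cyp2c55 at 1375 (0.748, others 99.98 to 421), and replicate 2 for Cyp1a1 at 9.11 (0.726, others 1.96 to 3.92). Mice that stand high in several genes are not independent of each other across those genes.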

How the results depend on the processing

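No P450 gene was called in any limma setting or without any single mouse. The number of all genes called was 1; it was 2 with a value of at least 50 in 5 mice, 2 with array weights, 31 by DESeq2 on reads, 56 by DESeq2 on 9 libraries and 276 by DESeq2 on 8 libraries (the last settings were chosen after seeing the data), and 1 to 3 without single mice. DESeq2 on 8 libraries called 4 members (3 higher, 1 lower). With the replicate number as a block, 1 gene and 0 members were called; same-numbered mice correlated from -0.116 to 0.136, so the numbers do not pair the mice. Members whose groups do not overlap numbered 0 to 1 without single mice (Cyp3a44 without Vil-Cre:NDI1 2 and Cyp4f13 without Vil-Cre:NDI1 4). Relations that passed numbered 8, and 6 after rescaling.

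The log2 fold change changed sign in these settings. Without single mice it ranged from -0.031 to 0.14 for Cyp4f14, -0.0081 to 0.72 for Cyp3a11, -0.017 to 0.43 for Cyp2d26, -0.29 to 0.048 for Cyp4f16, -0.023 to 0.34 for Cyp2c65, -0.073 to 0.082 for Cyp4f40, -0.37 to 0.58 for Cyp2c55, -0.079 to 0.63 for Cyp2c66 and -0.43 to 0.81 for Cyp2c29. Array weights gave -0.010 for Cyp4f14, -0.10 for Cyp4f40 and 0.30 for Cyp2c29. On reads, edgeR and DESeq2 gave -0.041 and -0.032 for Cyp3a11 and -0.12 and -0.11 for Cyp2c66, and moved Cyp2c29 from -0.0028 to -0.85 and -0.84. Rescaled totals gave -0.043 for Cyp4f40. On 8 libraries edgeR and DESeq2 gave -0.12 and -0.12 for Cyp4f40 and 0.94 and 0.95 for Cyp2c29, and on 9 libraries DESeq2 gave -0.055 and 1.18. A pseudocount of 0.1 gave 0.0058 for Cyp2c29. The cause was not tested. Rescaling moved the median of all genes from 0.01 to -0.06 on the log2 scale and left 20 members positive. Counts of under 10 reads limit 26 members.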

Other observations

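Cyp27b1, which makes the active form of vitamin D, did not reach the filter and was chosen after its values were seen. It had 2.80, 0, 0, 0 and 0 normalized counts in Vil-Cre mice and 6.86, 3.64, 14.5, 0.979 and 1.17 in Vil-Cre:NDI1 mice, so that 31 reads in all carried the difference (two-sided exact permutation p = 0.0556). Cyp2r1, a vitamin D 25-hydroxylase, had 3.28 to 11.1 in Vil-Cre and 5.87 to 19.6 in Vil-Cre:NDI1 mice (exact permutation p = 0.27). Cyp24a1, which breaks vitamin D down, had 5 reads over all 10 mice.

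Cyp2u1, a hydroxylase of long-chain fatty acids, was also chosen after its values were seen. It had 512, 486, 211, 263 and 213 normalized counts in Vil-Cre mice and 138, 296, 222, 560.2 and 745 in Vil-Cre:NDI1 mice. Vil-Cre:NDI1 5 was highest and Vil-Cre:NDI1 1 lowest, and Vil-Cre 3, the top mouse of the Cyp3a genes, was near the bottom. The gene overlaps a gene on the opposite strand. Cyp2s1 ranged from 744 to 1158 over all mice. Cyp2d22 ranged from 359 in Vil-Cre 5 to 829.9 in Vil-Cre:NDI1 5.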
